A study of Mus musculus with 11 samples.

Results

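The canonical histone genes were taken as every gene in the deposited tables whose mouse symbol begins with Hist1h, Hist2h, Hist3h or Hist4h, and 56 of the 14272 genes with values met that rule. The annotation of the same genome build (GRCm38) holds 70 such genes, so 14 were not in the tables, which kept genes with at least 1 CPM (reads of a gene scaled to a common library size) in at least 4 libraries. By cluster, values were found for 48 of 56 genes of Hist1 on chromosome 13, 5 of 10 of Hist2 on chromosome 3, 2 of 3 of Hist3 on chromosome 11 and the 1 gene of Hist4 on chromosome 6. By type, the 56 genes encode H1 (6 of 6 annotated), H2A (13 of 20), H2B (14 of 19), H3 (10 of 12) and H4 (13 of 13). One of the 14 H2B entries, Hist3h2bb-ps, is annotated as a pseudogene.

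Nucleosomes wrap DNA around an octamer of the core histones H2A, H2B, H3 and H4, and the linker histone H1 binds where the DNA enters and leaves. The canonical genes are transcribed mainly in S phase, when new DNA has to be packaged, and their mRNAs end in a conserved stem-loop in place of a poly(A) tail. Many near-identical copies lie side by side in clusters, the largest of which is Hist1, and total RNA libraries such as these record such transcripts whether or not they are polyadenylated.

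The libraries come from 4 murine cell lines. Melan-a is a line of immortalized, nonmalignant melanocytes. Repeated cycles in which adhesion was blocked gave 4C, 4C11- and 4C11+ from melan-a, listed here by increasing malignancy. The mesenchymal-like lines are 4C and 4C11-, while 4C11+ is metastatic and has an epithelial phenotype. The medium of melan-a held the phorbol ester PMA at 200 nM and that of the derived lines held none, so medium and line cannot be told apart in any comparison with melan-a. Each line stands for 1 derivation, and replicates are cultures of the same line: 2 libraries of melan-a (replicates 2 and 3; replicate 1 was not analysed here) and 3 of each other line, 11 in all.

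The deposited values are log2 CPM with nearly the same distribution in every library, and a difference of 1 on this scale is a fold of 2. The lowest values lie on steps shared by many genes, read here as 0, 1, 2 and more reads. The spacing of these steps differed between libraries. The steps of 0 and 3 reads lie at -3.15 and -0.25 in melan-a replicate 2 but at -3.44 and -2.01 in 4C11- replicate 2. The depth of a library therefore cannot be taken from them. Of 8 melanocyte markers measured, the median was 7.33 and 7.92 log2 CPM in melan-a and 8.97 to 9.01 in 4C11+, but -2.87 to -0.04 in 4C and 4C11-, where 4 fibroblast markers had medians of 7.77 to 8.30 against 1.19 to 3.87 in melan-a and 4C11+. Single markers differed between melan-a and 4C11+. Tyr had -0.25 and 1.29 against 8.39 to 8.70, and Pmel 2.41 and 2.95 against 11.72 to 12.20. Kit was the other way, with 6.92 and 6.18 against 2.17 to 4.22. Melan-a replicate 2 stood apart: 33 of the 38 histone genes that do not belong to the 2 low sets described below had their lowest value of all 11 libraries there. Some markers of other cell types were higher in it than in melan-a replicate 3. Among them were Pdgfrb (6.90 against 0.89), Pdgfra (6.38 against 3.91) and Cd68 (6.35 against 2.67). Col1a1 (1.35 against 1.48) and Cdh5 (-3.15 against -1.42) were not, and Csf1r, Col3a1 and Krt10 were low in both. Of the melanocyte markers, Tyrp1 (8.51 against 12.63), Dct, Mlana, Mitf, Tyr and Pmel were lower. Sox10 (9.05 against 7.88) and Kit (6.92 against 6.18) were higher. The part of these differences in the histone values was not tested. A lower value in a bulk sample cannot tell fewer cells making a transcript from less of it per cell.

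Each gene was tested with limma over all 14272 genes, and a gene is called at a Benjamini-Hochberg adjusted p under 0.05. In 4C11+, set against the mean of the other lines, 20 of the 56 histone genes were lower, where 15.8% of all genes were, and 3 were higher, where 18.3% of all genes were. Against 4C11- alone, 22 were lower (15.4% of all genes) and 3 higher (15.6%), and against melan-a 17 were lower (7.52%) and 4 higher (8.39%). The medians over the 56 genes in these comparisons were -0.19, -0.81 and 0.34, and those over all genes 0.08, 0.12 and 0.03, all as log2 differences. In 4C against melan-a 2 genes were higher (7.64% of all genes) and 0 lower (7.55%), and in 4C11- against 4C 0 were higher (1.26%) and 0 lower (0.406%). These comparisons share libraries and are not independent of each other. Counts of higher genes in comparisons that hold melan-a rested on its 2 libraries, whose summed histone CPM differed (2890 and 9181). These counts rose when melan-a replicate 3, the higher of the 2, was left out.

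**Figure D1:**
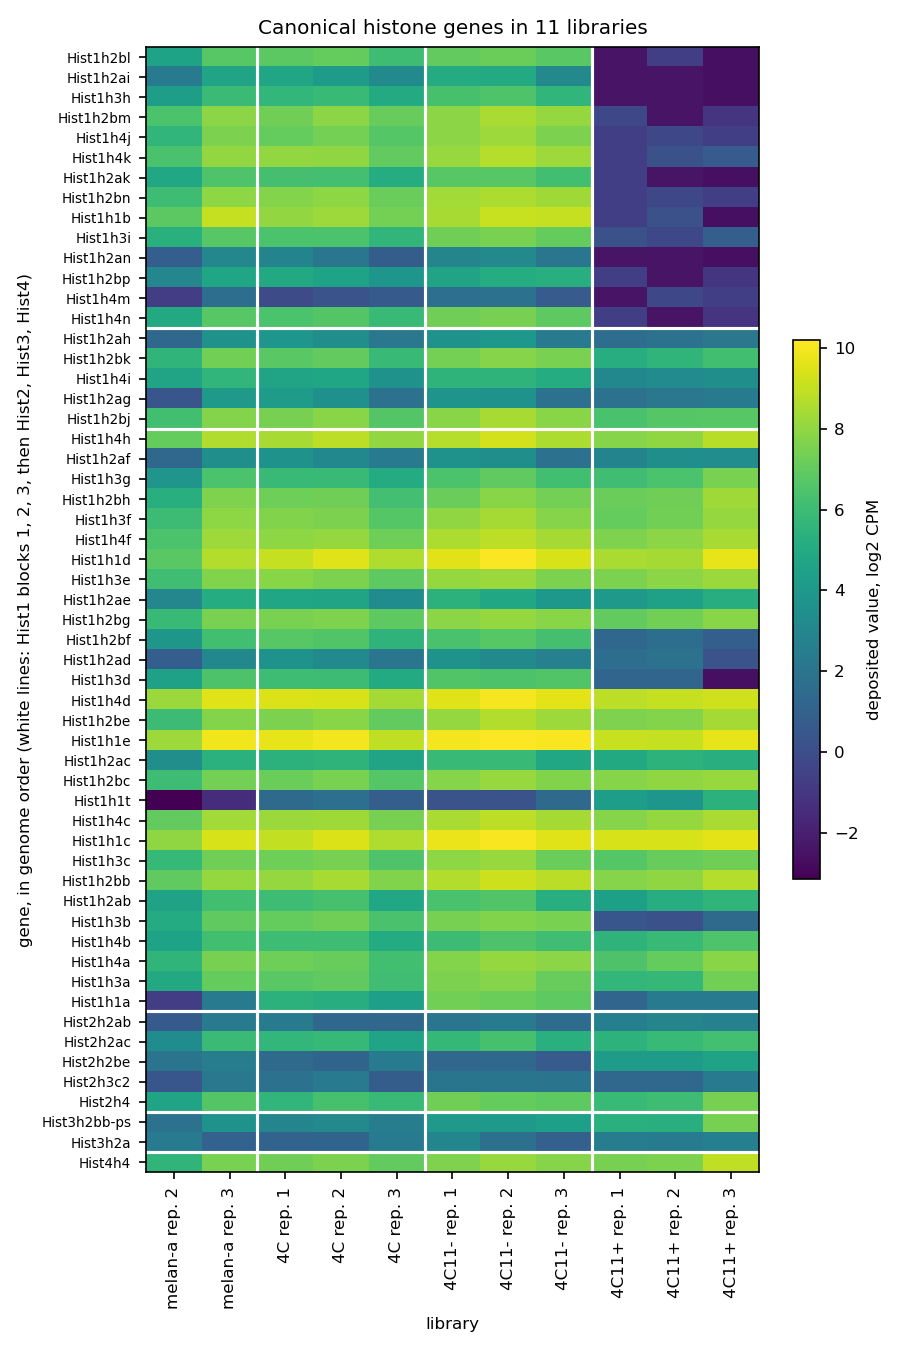
Deposited log2 CPM of the 56 canonical histone genes (rows, in genome order) in the 11 libraries (columns). The first 14 rows are at 0.88 or below in all 3 4C11+ libraries, and Hist1h2bf, Hist1h2ad, Hist1h3d and Hist1h3b form separate dark cells in the same columns.

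All 20 genes that were lower in 4C11+ than the mean of the other lines lie in Hist1 on chromosome 13, 14 of them in 1 stretch. Hist1 genes separated by less than 100 kb were joined into blocks, which gave the first block at chr13:21715763-21837530 (122 kb, 14 of 19 genes measured), the second at chr13:22035164-22043676 (8.51 kb, 5 of 5) and the third at chr13:23531050-23764406 (233 kb, 29 of 29), with gaps of 198 kb and 1487 kb between them. The 3 genes of 2 further small blocks were not in the tables. In 4C11+ all 14 measured genes of the first block were lower than the mean of the other lines, by a log2 difference of -1.85 to -9.28 with a median of -7.81, and Hist1h4m, the gene at -1.85, was the lowest of the 14 in the other lines. All 14 were also lower than in 4C11- (median -8.46) and 13 were lower than in melan-a. Each of the 14 entered the tables through the other 3 lines, which hold 8 of the 11 libraries.

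The first block was at or near 0 reads in 4C11+. Together its 14 genes had 12, 15 and 24 reads in the 3 4C11+ libraries. Their summed level there was 7.20, 7.53 and 7.66 CPM, against 560 and 1993 CPM in melan-a, 948 to 1708 in 4C and 2148 to 2812 in 4C11-. The block thus gave 18.5% to 21.7% of the summed histone CPM in the 8 libraries of the other lines and 0.0894% to 0.148% in 4C11+. For 13 of the 14 genes the highest 4C11+ value lay below the lowest value of any other library, the exception being Hist1h4m. In all, 11 of them, Hist1h2bl, Hist1h2ai, Hist1h3h, Hist1h2bm, Hist1h4j, Hist1h2ak, Hist1h2bn, Hist1h1b, Hist1h2an, Hist1h2bp and Hist1h4n, had at most 3 reads in every 4C11+ library and over 3 in every other library, a pattern shown by 227 genes of all those tested (1.59%).

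Hist1h1b (chr13:21779883-21780625, minus strand) encodes the linker histone H1.5 and shares no 100-base stretch of its transcript with another annotated gene. Its values were 6.86 and 9.04 log2 CPM in melan-a, 8.04, 8.26 and 7.41 in 4C, 8.47, 9.09 and 9.05 in 4C11-, and -0.70, 0.15 and -2.58 in 4C11+, which are 1, 3 and 0 reads. The groups do not overlap, and 4C11+ was at least 298-fold below the mean of the other lines, counted against the level of 3 reads per library (log2 difference -9.28 ± 0.55, SE, adjusted p = 3.8e-07). Hist1h2bn (chr13:21754123-21754503), an H2B gene, had 6.05 and 7.91 in melan-a, 7.73, 7.93 and 7.15 in 4C, 8.34, 8.57 and 8.29 in 4C11-, and 1, 2 and 2 reads in 4C11+, at least 199-fold lower. Hist1h2bm, another H2B gene, had 6.44 to 8.53 in the other lines and 2, 0 and 1 reads in 4C11+, at least 190-fold lower.

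The H4 gene Hist1h4j was at least 144-fold lower, with 5.66 to 8.27 log2 CPM in the other lines and 1, 2 and 2 reads in 4C11+. Hist1h3h, an H3 gene, had 0 reads in all 3 4C11+ libraries and 4.31 to 6.53 log2 CPM elsewhere, at least 48.2-fold lower. The H2B genes Hist1h2bl and Hist1h2bp were at least 85.1-fold and 21.6-fold lower, the H2A gene Hist1h2ak 64.1-fold and the H4 gene Hist1h4n 86.3-fold. The H2A genes Hist1h2ai and Hist1h2an were likewise at 0 reads in the 3 4C11+ libraries, at least 15.7-fold and 4.51-fold lower. A pair of genes kept a few more reads, Hist1h4k with 1, 3 and 7 and Hist1h3i with 3, 2 and 8. Of the 100-base windows of their transcripts, 64.3% and 68.6% are found in other annotated genes. That share was 92.0%, 88.4% and 83.3% for Hist1h3h, Hist1h2ai and Hist1h2an, which had 0 reads in all 3 4C11+ libraries. Whether reads of other copies were counted for any of these genes was not tested. Hist1h4m had 0, 2 and 2 reads in 4C11+ and only 2 to 26 elsewhere, and its call against the other lines (adjusted p = 0.037) was lost without any one of 6 libraries (melan-a replicate 3, 4C replicates 2 and 3, 4C11- replicate 2, 4C11+ replicates 1 and 3), with adjusted p of 0.0572 to 0.221.

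**Figure D2:**
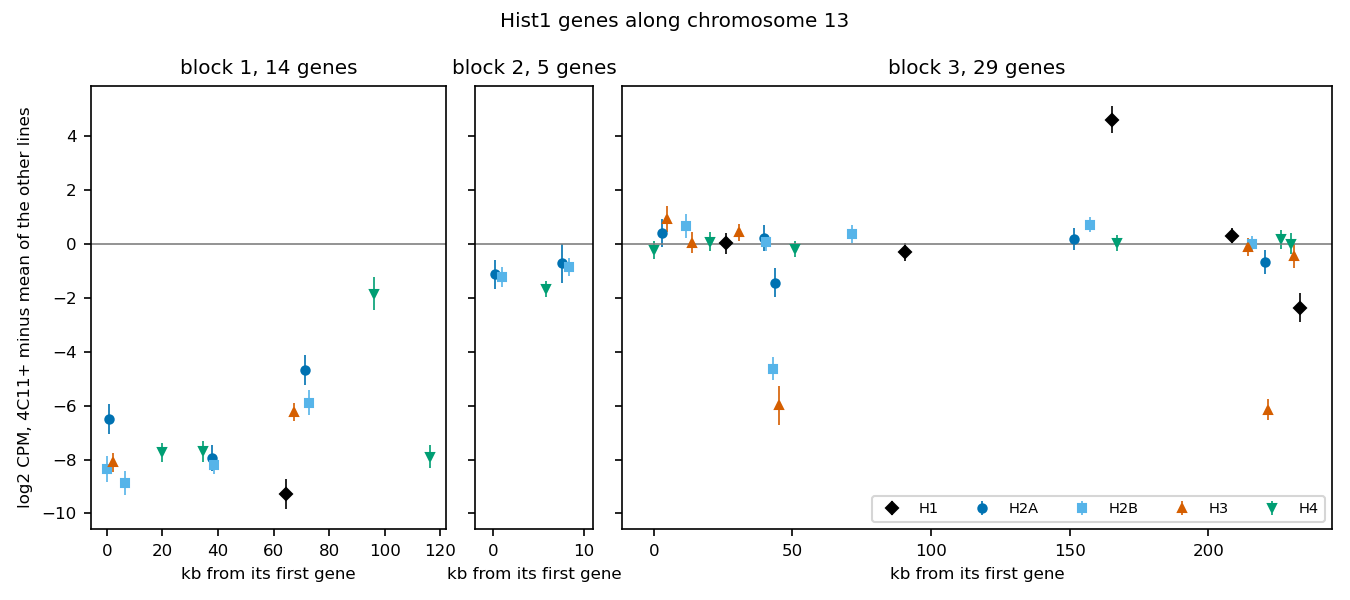
Log2 difference of each Hist1 gene in 4C11+ from the mean of the other lines (points, bars are SE) against its distance in kb from the first gene of its block, with symbols by histone type. Block 1 lies between -1.85 and -9.28 throughout, block 2 between -0.71 and -1.68, and block 3 mostly near 0 apart from 4 low genes, Hist1h1t above and Hist1h1a below.

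No other measured gene lies inside the first block. The nearest measured genes on its far side are Zfp184, a zinc finger gene, and Prss16, a serine protease gene, both between the first and second blocks. Zfp184 had 1.33, 1.90 and 2.18 in 4C11+ and 2.48 to 3.59 in the other lines, lower without overlap but by -1.22 ± 0.31 only (adjusted p = 0.011). Prss16 differed by -1.18 (adjusted p = 0.038), and its 4C11+ values of -0.24 to 1.32 overlapped those of 4C (0.24 to 0.60). Transcripts of Zfp184 remained measurable in 4C11+, while Prss16 was near the floor there, at the level of 3 reads in replicate 3.

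Of the 29 genes of the third block, 4 had at most 14 reads in every 4C11+ library, and these 4 low genes were singled out after their values were seen. For 3 of them (Hist1h2bf, Hist1h3d and Hist1h3b) the difference from the other lines passed the threshold, while Hist1h2ad was low in every line. Hist1h1a, in the same block with 8, 19 and 27 reads in 4C11+, was also lower and is described with the H1 genes. Hist1h2bf, Hist1h2ad and Hist1h3d lie next to each other within 3276 bases (chr13:23573736-23577011), and Hist1h3b lies 175 kb further on (chr13:23752267-23752886). Hist1h3b, an H3 gene, had 5.09 and 6.96 log2 CPM in melan-a, 7.06, 7.28 and 6.36 in 4C, 7.47, 7.69 and 7.51 in 4C11-, and 0.44, 0.15 and 1.44 in 4C11+, which are 4, 3 and 12 reads (difference from the other lines -6.15 ± 0.39, adjusted p = 6.2e-07). Hist1h3d, also an H3 gene, had 4.47 to 6.57 in the other lines and 8, 8 and 0 reads in 4C11+ (-5.98 ± 0.72, adjusted p = 8.3e-05). The H2B gene Hist1h2bf had 3.90 to 6.76 in the other lines and 9, 12 and 8 reads in 4C11+ (-4.63 ± 0.43, adjusted p = 1.1e-05). For these 3 genes the 4C11+ values lie below all others.

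Hist1h2ad, an H2A gene, had 12, 14 and 5 reads in 4C11+ and was low in every line, with 0.87 to 3.73 elsewhere. Its groups overlap, its difference from the other lines missed the threshold (-1.43 ± 0.55, adjusted p = 0.065), and its call against 4C11- (adjusted p = 0.048) was lost without any of 8 libraries (4C replicates 1 and 2 and every replicate of 4C11- and 4C11+; adjusted p of 0.053 to 0.156). Together the 4 genes gave 2.52% to 4.01% of the summed histone CPM in the other lines and 0.0693% to 0.193% in 4C11+. None of the 4 genes on either side of them passed the threshold. Hist1h2bg, 1722 bases before Hist1h2bf, was at 0.07 ± 0.31, and Hist1h4d, 4586 bases after Hist1h3d, at -0.18 ± 0.29. Around Hist1h3b, Hist1h2ab, 668 bases before it, was at -0.65 ± 0.44 and Hist1h4b, 4126 bases after it, at 0.18 ± 0.35. Against 4C11- alone Hist1h2ab was at -0.998 ± 0.534 (adjusted p = 0.18).

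Promoter sequences (RefSeq, GRCm38.p6, 250 bases before to 50 after the start) were available for 50 of the 56 genes, and both strands were searched for the TATA box TATAAA, the CCAAT box CCAAT and the octamer ATTTGCAT that binds Oct-1 at H2B genes. The first 4 promoters below belong to genes with few or no reads in 4C11+ (Hist1h2bf shares its upstream region with Hist1h2ad), and the last 2 to genes of the third block that were not called. Capitals mark matches on either strand.
Hist1h1b promoter, chr13:21780576-21780875, minus strand: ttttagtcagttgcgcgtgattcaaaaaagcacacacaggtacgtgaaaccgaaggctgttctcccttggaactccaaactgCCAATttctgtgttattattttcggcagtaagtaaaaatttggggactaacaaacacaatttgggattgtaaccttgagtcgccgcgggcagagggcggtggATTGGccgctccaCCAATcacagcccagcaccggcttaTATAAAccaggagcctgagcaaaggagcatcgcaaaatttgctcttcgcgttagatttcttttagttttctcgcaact
Hist1h2bf promoter, chr13:23574158-23574457, minus strand: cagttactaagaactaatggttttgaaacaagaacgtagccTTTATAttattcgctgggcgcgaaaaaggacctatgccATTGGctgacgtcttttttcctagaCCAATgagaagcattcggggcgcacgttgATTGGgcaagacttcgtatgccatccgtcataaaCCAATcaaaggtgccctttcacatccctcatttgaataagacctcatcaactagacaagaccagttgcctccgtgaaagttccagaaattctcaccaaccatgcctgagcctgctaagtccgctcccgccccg
Hist1h3d promoter, chr13:23575513-23575812, plus strand: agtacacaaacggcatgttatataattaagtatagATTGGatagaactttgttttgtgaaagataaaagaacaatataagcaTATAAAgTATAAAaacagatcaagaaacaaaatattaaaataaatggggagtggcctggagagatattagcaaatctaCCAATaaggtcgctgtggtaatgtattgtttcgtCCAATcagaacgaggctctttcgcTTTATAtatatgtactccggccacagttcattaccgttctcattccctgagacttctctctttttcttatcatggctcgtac
Hist1h3b promoter, chr13:23752095-23752394, plus strand: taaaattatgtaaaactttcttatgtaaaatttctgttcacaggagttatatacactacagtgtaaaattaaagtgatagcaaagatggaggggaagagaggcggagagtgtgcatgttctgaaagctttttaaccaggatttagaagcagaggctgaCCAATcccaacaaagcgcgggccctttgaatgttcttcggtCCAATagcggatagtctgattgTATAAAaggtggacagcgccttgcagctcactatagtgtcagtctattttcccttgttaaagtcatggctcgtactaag
Hist1h2ae promoter, chr13:23571171-23571470, minus strand: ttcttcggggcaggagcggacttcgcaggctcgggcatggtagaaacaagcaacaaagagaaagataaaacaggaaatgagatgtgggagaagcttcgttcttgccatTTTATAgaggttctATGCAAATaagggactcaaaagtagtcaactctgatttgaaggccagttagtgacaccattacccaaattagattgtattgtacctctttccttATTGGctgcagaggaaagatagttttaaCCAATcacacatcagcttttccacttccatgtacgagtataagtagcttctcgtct
Hist1h4b promoter, chr13:23756687-23756986, plus strand: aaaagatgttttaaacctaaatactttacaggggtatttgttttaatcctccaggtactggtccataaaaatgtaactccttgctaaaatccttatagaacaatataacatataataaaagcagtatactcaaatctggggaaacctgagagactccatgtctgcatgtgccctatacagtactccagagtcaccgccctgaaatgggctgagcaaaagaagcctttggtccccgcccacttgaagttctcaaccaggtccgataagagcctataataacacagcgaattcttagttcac
All 4 low genes of the third block have both a TATA and a CCAAT match, as does Hist1h1b, while the H4 gene Hist1h4b has no match to any of the 3. Over the 14 genes of the first block, 11 had a TATA match (78.6%) and 10 a CCAAT match (71.4%), against 11 and 19 of the 22 other genes of the third block with a promoter in the table (50% and 86.4%), Hist1h1a and Hist1h1t among them. TATAAA was found in 31 of the 50 histone promoters (62%) and in 13.6% of the 32851 promoters in the table, and CCAAT in 41 (82%) and in 37.4%. CCAAT was in every H1, H2A, H2B and H3 promoter available but in 3 of 12 of H4. The octamer was in 10 (20%, against 1.74% of all promoters), 6 of them of H2A and 4 of H2B, 1 in the first block (Hist1h2bm) and none among the 4 low genes. A match is a string of letters and does not show that a factor binds there.

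The stem-loop that ends canonical histone mRNAs was looked for in the annotated transcripts and found in 40 of the 56 genes. These were 5 of the 14 genes of the first block, all 4 low genes of the third block and 22 of its other 25, 4 of 5 of the second block and 5 of the 8 outside Hist1. It is shown here for low genes of both places, for genes of the third block that were not called and for Hist1h1t, in capitals with 5 bases on each side.
Hist1h2bm stem-loop: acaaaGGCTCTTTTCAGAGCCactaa
Hist1h4n stem-loop: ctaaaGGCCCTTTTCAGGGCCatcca
Hist1h2bf stem-loop: ccaaaGGCTCTTTTCAGAGCCaccta
Hist1h3d stem-loop: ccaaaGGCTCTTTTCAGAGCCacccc
Hist1h3b stem-loop: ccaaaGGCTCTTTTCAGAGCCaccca
Hist1h2bg stem-loop: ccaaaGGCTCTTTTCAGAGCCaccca
Hist1h4b stem-loop: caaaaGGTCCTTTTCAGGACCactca
Hist1h1t stem-loop: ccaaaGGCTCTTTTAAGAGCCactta
The commonest form was in 20 genes and is the one of Hist1h2bm, Hist1h2bf, Hist1h3d and Hist1h3b and also of Hist1h2bg. Hist1h1t has a form found in 6 genes. Many genes without a match have an annotated transcript that stops at or near the end of the coding part.

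Of the 5 genes of the second block, 2 were lower in 4C11+ than the mean of the other lines, and all 5 had a negative difference. Hist1h4i (chr13:22040636-22041362), an H4 gene, had 4.64 and 5.63 in melan-a, 4.64, 4.72 and 3.73 in 4C, 5.52, 5.51 and 5.11 in 4C11-, and 3.09, 3.28 and 3.48 in 4C11+, without overlap (-1.68 ± 0.29, adjusted p = 0.0011). The H2B gene Hist1h2bk was also lower than the other lines (-1.23 ± 0.37, adjusted p = 0.023), with 5.18 to 6.15 in 4C11+ against 5.57 to 7.80, an overlap with melan-a replicate 2 and 4C. Hist1h2ah, Hist1h2ag and Hist1h2bj were at -1.12, -0.71 and -0.84 and not called, though Hist1h2bj was lower than in 4C11- alone (-1.44 ± 0.40, adjusted p = 0.018). The block gave 2.33% to 3.06% of the summed histone CPM in 4C11+ and 3.59% to 5.10% in the other lines.

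In the rest of the third block, 25 genes, the median difference of 4C11+ from the other lines was 0.07, next to 0.08 over all genes, and 1 gene was higher, 1 lower and 23 not called. Hist1h1t and Hist1h1a, the 2 that were called, are both H1 genes. In total 18 of the 25 had a positive difference, and apart from Hist1h1t these ran from 0.00 for Hist1h2bb to 0.93 ± 0.48 for the H3 gene Hist1h3g. The H2B genes Hist1h2bc, Hist1h2bh and Hist1h2be were at 0.71, 0.66 and 0.37, the H3 genes Hist1h3e and Hist1h3f at 0.44 and 0.05, the H2A genes Hist1h2af and Hist1h2ac at 0.42 and 0.18, and the H4 genes Hist1h4f and Hist1h4a at 0.09 and 0.02. Among non-histone genes in the Hist1 region, Hfe, which encodes a regulator of iron uptake and lies in the third block beside Hist1h4c and Hist1h1t, was higher in 4C11+ (5.64, 5.58 and 5.31 against 1.65 to 3.37, difference 2.83 ± 0.31, adjusted p = 3.9e-05). Hist1h4c, between Hist1h1t and Hfe, was at 0.05 ± 0.29. The other 4 of the 7 measured neighbours, Zfp322a, Abt1, C230035I16Rik and Gm46404, were not called. Beyond the first block, Gm11273 (chr13:21501029-21501418) was higher in 4C11+ (2.86, 2.32 and 2.03 against 0.06 to 1.57, difference 1.68 ± 0.38, adjusted p = 0.0057) and Zkscan8, a zinc finger gene on the same side, was at -0.82 ± 0.62 (adjusted p = 0.34). Beyond the third block, Carmil1 had 3.73, 3.51 and 3.13 in 4C11+ against 4.47 to 6.07 in the other lines, lower without overlap. Cmah, further on, had -2.44, -0.70 and -1.16 in 4C11+ against -2.58 to 1.98, and its groups overlap.

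**Figure D3:**
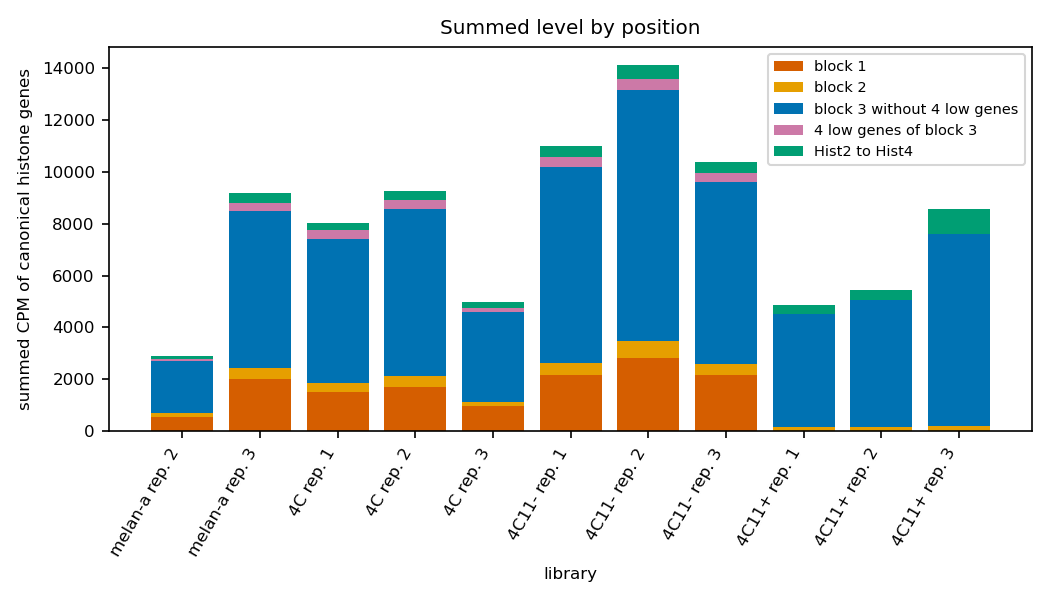
Summed CPM (2 to the power of the deposited value) of the canonical histone genes in each library, stacked by position. The first block and the 4 low genes of the third are visible in the 8 libraries of the other lines and not in the 3 of 4C11+, where the third block gives 86.5% to 89.9% of the sum.

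The linker histone genes diverged most among themselves. Hist1h1c, Hist1h1d and Hist1h1e, which encode H1.2, H1.3 and H1.4, are the major somatic forms, and none of them was called in any comparison. Hist1h1e had 8.25 and 9.90 in melan-a, 9.73, 9.99 and 8.93 in 4C, 9.99, 10.20 and 10.10 in 4C11- and 9.08, 9.04 and 9.71 in 4C11+ (-0.29 ± 0.33 in 4C11+ against the other lines), although its gene overlaps the annotated Hist1h2be on the same strand and reads of the 2 could be exchanged. Hist1h1c (0.31 ± 0.27) had 7.99 to 10.07 in the other lines and 9.38, 9.41 and 9.68 in 4C11+, and Hist1h1d (0.03 ± 0.40) 6.79 to 10.15 and 8.51, 8.41 and 9.68. These groups overlap.

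Hist1h1t (chr13:23695814-23696725) encodes the linker histone H1t, known from spermatocytes. It was at -3.15 and -1.42 in melan-a, which are 0 and 1 reads, at 1.47, 1.71 and 0.91 in 4C, 0.26, 0.24 and 1.45 in 4C11-, and 4.34, 3.84 and 5.42 in 4C11+. It was higher in 4C than in melan-a by at least 3.38-fold counted against 3 reads (adjusted p = 0.0029), did not pass the threshold between 4C and 4C11- (-0.71 ± 0.60), and was higher in 4C11+ than in 4C11- by 3.88 ± 0.60 (adjusted p = 0.00048). All 3 4C11+ libraries lie above all others, and against melan-a the difference was at least 30.5-fold. The gene shares no 100-base stretch with another annotated gene. Its promoter has a CCAAT match but none to TATAAA.
Hist1h1t promoter, chr13:23695561-23695860, plus strand: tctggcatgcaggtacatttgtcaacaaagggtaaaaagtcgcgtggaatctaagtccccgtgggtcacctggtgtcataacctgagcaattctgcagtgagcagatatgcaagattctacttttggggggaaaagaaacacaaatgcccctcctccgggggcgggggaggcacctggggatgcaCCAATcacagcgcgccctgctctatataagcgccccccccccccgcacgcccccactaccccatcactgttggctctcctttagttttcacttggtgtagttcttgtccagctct

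Hist1h1a (chr13:23763666-23764406) encodes H1.1 and is the last gene of the third block. It had -0.72 and 2.37 in melan-a, 5.45, 5.17 and 4.38 in 4C, 7.34, 7.20 and 6.88 in 4C11-, and 1.18, 2.32 and 2.37 in 4C11+. It rose from melan-a to 4C by 4.18 ± 0.73 (adjusted p = 0.0021), was 2.14 ± 0.65 higher in 4C11- than in 4C without passing the threshold (adjusted p = 0.15; the 3 values of each line do not overlap), and was lower in 4C11+ than in 4C11- by -5.18 ± 0.65 (adjusted p = 0.00011). Between 4C11+ and melan-a the groups overlap (1.13 ± 0.73, adjusted p = 0.32). Hist1h1a thus was high in 4C and 4C11-, the lines in which the melanocyte markers were near the bottom of the scale, and low in the others, and whether the marker state and this gene are linked was not tested. Its promoter has both a TATA and a CCAAT match.
Hist1h1a promoter, chr13:23763418-23763717, plus strand: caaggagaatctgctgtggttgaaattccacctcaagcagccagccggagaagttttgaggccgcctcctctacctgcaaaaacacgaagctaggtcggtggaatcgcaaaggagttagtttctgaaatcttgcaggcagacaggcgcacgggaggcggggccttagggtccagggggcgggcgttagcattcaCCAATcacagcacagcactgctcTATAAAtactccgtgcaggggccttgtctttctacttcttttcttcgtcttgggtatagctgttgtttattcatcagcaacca

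**Figure D4:**
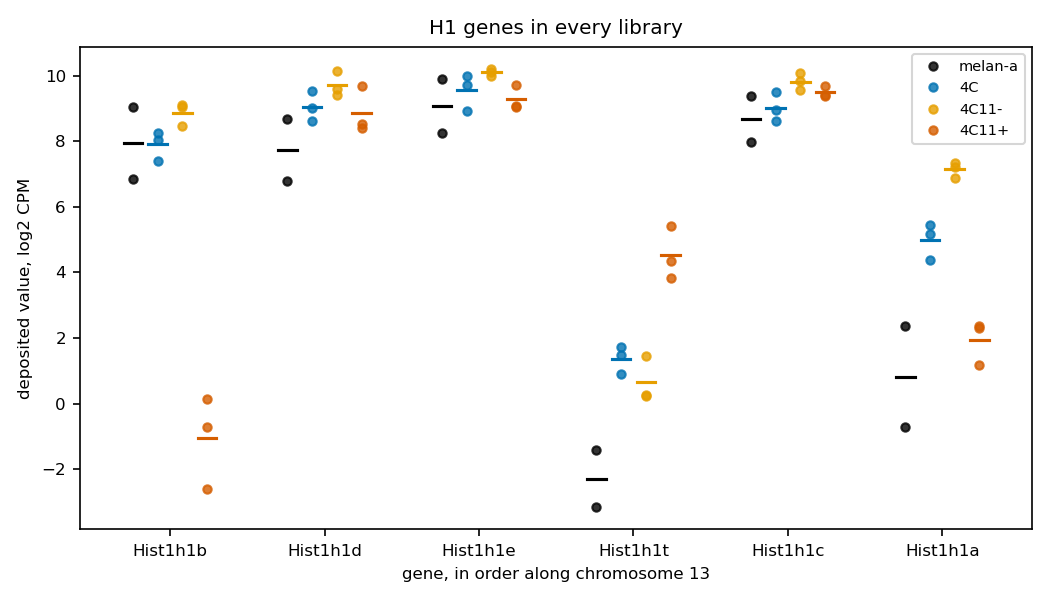
Deposited log2 CPM of the 6 H1 genes in every library (points) with the mean of each line (short bar), in order along chromosome 13. Hist1h1b drops in 4C11+, Hist1h1t is highest there, Hist1h1a is high in 4C and 4C11- only, and the other 3 genes overlap between lines.

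Within the summed CPM of the 6 H1 genes, Hist1h1b gave 0.00660% to 0.0711% in 4C11+, against 14.8% and 20.6% in melan-a, 10.8% to 12.1% in 4C and 11.1% to 16.7% in 4C11-. Hist1h1c gave 32.3% to 43.4% in 4C11+ and 22.9% to 32.4% elsewhere. Hist1h1t reached 0.915% to 1.69% in 4C11+ and at most 0.128% in the other lines, and Hist1h1a 3.61% to 5.04% in 4C11-, 1.28% to 2.01% in 4C and at most 0.319% in melan-a and 4C11+.

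Although the first block holds genes of all 5 types, the makeup of the histone pool by type was close between lines. H1 genes gave 28.8% to 32.8% of the summed histone CPM in 4C11+, against 27.2% to 27.9% in melan-a, 27.1% to 30.4% in 4C and 28.9% to 30.6% in 4C11-. H4 genes gave 30.6% to 32.1%, against 31.6% to 33.6%, 29.7% to 31.5% and 29.7% to 30.8% in the same order. H2B genes gave 22.3% to 23.1%, against 23.0% to 23.5%, 23.2% to 24.1% and 22.7% to 25.0%. H3 genes gave 11.4% to 12.5%, against 12.2% to 13.2%, 12.0% to 13.6% and 11.9% to 14.2%. H2A genes gave 2.70% to 3.64%, against 3.53% to 4.28%, 3.21% to 4.55% and 2.21% to 4.09%. For every type the range of 4C11+ overlaps that of at least 1 other line. In the other lines the first block had supplied, as a share of all histone CPM, 3.23% to 5.74% through H1 and 0.822% to 1.37% through H2A. Through H2B it had supplied 6.41% to 7.16%, through H3 1.57% to 2.18% and through H4 5.62% to 6.46%.

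The summed level of all 56 genes was 2890 and 9181 CPM in melan-a, 8032, 9251 and 4981 in 4C, 11016, 14123 and 10370 in 4C11-, and 4864, 5439 and 8563 in 4C11+. The 3 values of 4C11- are the highest, and those of the other 3 lines overlap. Per kb of annotated exon, the median gene of H2A stood lowest among the types in every line, at 3.19 log2 CPM per kb in 4C11+, 4.36 in 4C11-, 4.39 in 4C and 3.76 in melan-a, against 6.44 to 7.07 for the other types in melan-a and 7.97 to 8.44 in 4C11-. Of the types, H2A also shares the most sequence with other annotated genes of any kind. The median H2A gene had 59.7% of its 100-base windows in such genes, against 0.396% for H1, 33.7% for H2B, 40% for H3 and 19.0% for H4. How reads with several equal matches were counted is not given in the sources used here, so single genes with a high share (19 of the 56 are above 50%) are uncertain, and the part of this in the low H2A values was not tested.

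The calls by type are for 4C11+ against the mean of the other lines, where 15.8% of all genes were lower and 18.3% higher. For H1, 2 of 6 genes were lower and 1 higher. For the core types, 3 of 13 H2A, 6 of 14 H2B, 4 of 10 H3 and 5 of 13 H4 genes were lower, with 2 H2B genes higher. Leaving out the first block and the 4 low genes of the third, 38 genes remain, of which 3 were lower (Hist1h1a, Hist1h2bk and Hist1h4i) and 3 higher, with a median of 0.08. Both sets were left out because they were low in 4C11+, so fewer lower genes remain by choice. The medians by type over those 38 were 0.03 for H1, 0.22 for H2A, 0.37 for H2B, 0.02 for H3 and 0.05 for H4.

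Some histone genes face away from each other over a short distance and share their upstream region. In all, 11 such pairs with less than 1000 bases between them were found, 10 of them an H2A with an H2B gene, and in all 11 the differences of the 2 genes in 4C11+ from the other lines had the same sign. Hist1h2ak and Hist1h2bn, 295 bases apart in the first block, were at -7.93 and -8.21, Hist1h2ah and Hist1h2bk, 301 bases apart in the second, at -1.12 and -1.23, and Hist1h2ae and Hist1h2bg, 175 bases apart in the third, at 0.22 and 0.07. Hist1h2bf and Hist1h2ad, 184 bases apart, were at -4.63 and -1.43. Every measured gene of the first 2 blocks had a negative difference, so pairs there could not differ in sign. In most pairs of the third block neither gene was called, so the sign there is a description.

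None of the 8 genes outside Hist1 was lower in 4C11+ past the threshold, and 2 were higher than the mean of the other lines. Hist2h2be (chr3:96221119-96223738), an H2B gene, had 1.97 and 2.45 in melan-a, 1.47, 1.15 and 2.31 in 4C, 1.26, 1.36 and 0.70 in 4C11-, and 4.16, 4.24 and 4.56 in 4C11+, above all others (2.67 ± 0.33, adjusted p = 9.5e-05). It shares no 100-base stretch with another annotated gene, and no stem-loop was found in its annotated transcript. Its call against melan-a alone (adjusted p = 0.0086) was lost without melan-a replicate 2 (adjusted p = 0.0641). The pseudogene Hist3h2bb-ps (chr11:58954048-58954512) had 1.87 and 3.68 in melan-a, 2.92, 3.15 and 2.50 in 4C, 4.06, 4.07 and 4.37 in 4C11-, and 5.31, 5.25 and 7.48 in 4C11+, also above all others (2.75 ± 0.49, adjusted p = 0.0013). Its call against 4C11- (adjusted p = 0.034) was lost without 4C11+ replicate 3 or any replicate of 4C11- (adjusted p of 0.057 to 0.107), and that against melan-a (adjusted p = 0.0074) without melan-a replicate 2 (adjusted p = 0.0808).

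Hist2h2ab, Hist2h2ac and Hist3h2a, all H2A genes, were at 1.02 ± 0.40, 0.58 ± 0.48 and 0.77 ± 0.48 in 4C11+ against the other lines, Hist2h3c2 (H3) at -0.02 ± 0.46, Hist2h4 (H4) at 0.23 ± 0.42 and Hist4h4 (H4) at 0.75 ± 0.40, none past the threshold. Hist4h4 was the most abundant of these, at 5.57 and 7.54 in melan-a and 7.02 to 8.92 in the derived lines. The 8 genes of Hist2, Hist3 and Hist4 together gave 3.40% to 4.70% of the summed histone CPM in melan-a, 4C and 4C11-, and 7.09% to 11.1% in 4C11+. In 4C11+ that sum held almost nothing from the first block and the 4 low genes. The summed level of the 8 genes was 349, 385 and 952 CPM in 4C11+. It was 408 to 526 CPM in 4C11-, 234 to 344 in 4C, and 98.1 and 378 in melan-a, so 4C11+ overlaps 4C11- and melan-a. In 4C11+ against melan-a alone, Hist1h2bc, an H2B gene of the third block, was also higher (1.22 ± 0.37, adjusted p = 0.045), a call lost without melan-a replicate 2 (0.56, adjusted p = 0.379) and without 7 other libraries (4C replicates 1 and 2, 4C11- replicates 2 and 3 and every 4C11+ replicate).

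Between the first 3 lines fewer histone genes were called. From melan-a to 4C, Hist1h1a and Hist1h1t were higher, 50 of the 56 genes had a positive difference, and the median was 0.44 against -0.06 over all genes. At an unadjusted p under 0.05 limma gave 3 genes higher and 0 lower. From 4C to 4C11- the median was 0.66 against 0.01 over all genes, and 52 of 56 genes had a positive difference. In that comparison 10 were higher and 0 lower at an unadjusted p under 0.05 (limma), none after adjustment. The share of all genes at the unadjusted threshold was not taken, so the unadjusted counts of both comparisons have no background. By type the medians of this comparison were 0.73 for H1, 0.33 for H2A, 0.72 for H2B, 0.71 for H3 and 0.85 for H4. Of the 38 genes outside both low sets, 26 had their highest line mean in 4C11-, 11 in 4C11+ and 1 in 4C, and 30 had their lowest in melan-a, where 1 of the 2 libraries was the low one.

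The level of the 38 genes also varied between replicates of a line, and S phase genes varied with it. The median of the 38 was 5.10 and 7.17 in melan-a, 6.77, 6.98 and 6.01 in 4C, 7.38, 7.79 and 7.16 in 4C11-, and 5.995, 6.22 and 7.40 in 4C11+. The median of 33 S phase genes, such as Pcna, Mcm2 and Rrm2, was 5.73 and 6.71, 6.99, 6.67 and 6.02, 6.81, 6.93 and 6.97, and 6.24, 6.21 and 6.85 in the same order. Over the 11 libraries the 2 medians had a Pearson correlation of 0.919, and of 0.887 after the mean of each line was subtracted. The points share library, depth and normalization, and cultures of a line are not separate lines. With the median of 15 mitosis genes the values were 0.593 and 0.624, and with that of 16 genes of histone mRNA synthesis and processing 0.771 and 0.852. The share of cycling cells was not measured here.

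**Figure D5:**
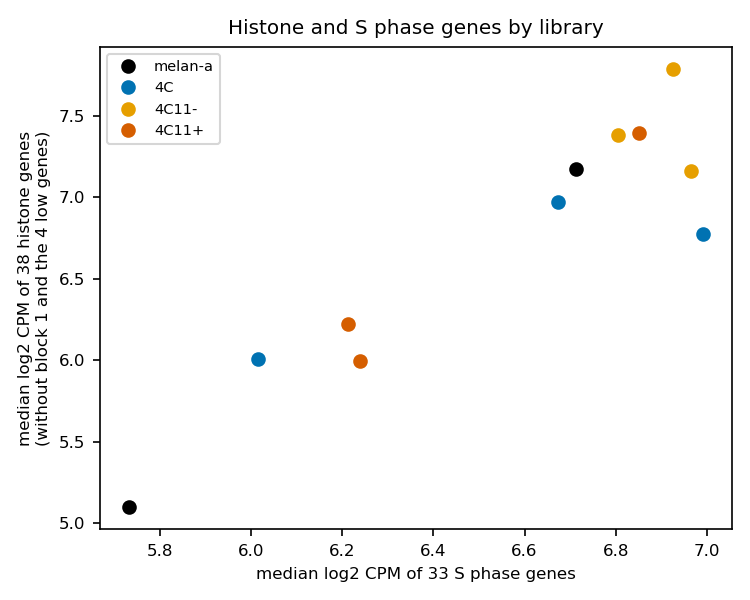
Median log2 CPM of 38 histone genes (those outside the first block and the 4 low genes) against the median log2 CPM of 33 S phase genes, 1 point per library, coloured by line. Melan-a replicate 2 lies at the lower left, and replicates of 4C and 4C11+ are spread along the same direction as the lines.

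The counts of the lists below are for 4C11+ against the mean of the other lines, where 15.8% of all genes were lower and 18.3% higher. Of the S phase list, 3 of 33 genes were lower (9.09%) and 0 higher, with a median of 0.04. At an unadjusted p under 0.05 limma gave 5 lower and 1 higher, with no share over all genes taken at that threshold. The 3 lower genes were Pola2 (-1.17), Pole (-0.96), both of the replicative polymerases, and Slbp (-0.85 ± 0.26, adjusted p = 0.026). Slbp encodes the protein that binds the histone stem-loop, and it had 5.61, 5.79 and 6.49 in 4C11+ and 6.21 to 7.46 in the other lines. It is also on the list of 16 genes of histone mRNA synthesis and processing, of which 3 were lower (18.8%) and 4 higher (25%), shares near those over all genes. Hinfp, which activates H4 genes, was lower (5.66, 5.67 and 5.14 in 4C11+ against 6.24 to 7.55, -1.40 ± 0.20, adjusted p = 0.00033), as was Cstf2 (-0.84), a 3' end processing factor. Lsm11, a subunit of the U7 particle that guides the cut behind the stem-loop, was higher (4.97, 4.79 and 4.85 against 2.78 to 4.23, 1.36 ± 0.30, adjusted p = 0.005), and so were Cdk2 (1.14) and Ccne1 (0.98), whose products activate the histone gene regulator Npat, and the endonuclease gene Cpsf3 (0.50). Npat itself was at -0.43 ± 0.56 and not called.

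Among the 20 histone chaperone genes, 3 were lower (15%; Supt16 at -2.27, Rbbp7 at -1.21 and Hjurp at -0.58) and 1 higher (5%; Asf1a at 0.94). Of 10 measured replacement and variant histone genes, which lie outside the canonical clusters, 5 were lower (50%) and 2 higher (20%). H1f0, the linker histone of differentiated cells, was lower (8.03, 7.42 and 8.59 against 9.24 to 10.29, -1.62 ± 0.25, adjusted p = 0.0005), as were H2afy2 (-3.74), a macroH2A gene, H2afx (-0.96), H2afv (-0.92) and Cenpa (-0.84), the centromeric H3. H2afj (1.31) and H2afy (0.95), the other macroH2A gene, were higher. For H2afy2, H2afx, H2afv and H2afj the 4C11+ values overlap those of melan-a. H2afy2 had 3.23 and -1.42 in melan-a and -0.70 to 0.84 in 4C11+, against 5.06 to 6.14 in 4C and 4C11-. H2afj had 5.36 and 5.68 in melan-a and 5.48 to 5.98 in 4C11+, against 3.50 to 4.61. Against melan-a alone, 2 of the 10 were lower (20%) and 1 higher (10%), where 7.52% and 8.39% of all genes were. On the mitosis list, 2 of 15 genes were lower (13.3%; Bub1b and Tpx2) and 1 higher (6.67%; Ccnb2), with a median of -0.40.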

How the data were processed

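RNA-seq of 11 libraries was used, 2 from melan-a and 3 from each derived line. The deposited values are log2 CPM that the authors made with voom in limma after trimming (Trimmomatic), alignment to GRCm38 (STAR), counting (Rsubread) and a filter on low genes, with versions not given in the sources used here. Genes were matched to GENCODE M21 by identifier (17 matched none), which gave symbols, positions and transcripts; promoters came from RefSeq. The values were used as they are. Differences between line means were fitted to the 11 libraries at once (limma 3.58.1, R 4.3.3) with a trend of the variance on the mean, and p-values of all 14272 genes were adjusted together by the Benjamini-Hochberg method. The fit was tested on simulated data. Summed CPM are sums of 2 to the power of the deposited value.

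Every H1 gene, every Hist2, Hist3 and Hist4 gene, the up to 10 called genes of largest difference in each of 5 comparisons, every gene absent from 1 line (no library above 3 reads) and present in another, and those against the majority direction in 4C11+ were named; others were chosen after their values were seen. The members and lists were chosen with earlier results of these data known. Replicates are cultures of 1 line, so p-values measure the spread between cultures. Alternatives covered a further quantile normalization, a filter on means, the replicate number, the trend and each library left out.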

Additional observations from a re-analysis of the deposited data

How the results depend on the processing

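The 10 counts of histone genes called higher or lower kept within 1.5 times their value in 3 settings. These were without genes of a mean log2 value under 1, without the mean-variance trend and with the replicate block. They also did so under a further quantile normalization. That setting could hardly change them, since the deposited values already have nearly the same distribution in every library. With the replicate block 19 genes were lower and 3 higher in 4C11+ against the mean of the other lines, and 17 lower and 3 higher against melan-a. The labels do not say that a replicate number marks shared cultures or days, deviations of same-numbered libraries from their line means correlated between -0.226 and 0.388 and not over 0.1 in every pair, and 4 of the 11 libraries correlated best with a library of their own number. Leaving out 1 library at a time moved the counts of higher genes most, to 2 to 14 in 4C against melan-a, 1 to 19 in 4C11+ against melan-a, 3 to 10 in 4C11+ against the mean of the other lines and 0 to 1 in 4C11- against 4C (1 without either melan-a library). The counts of lower genes ranged from 19 to 24 in 4C11+ against 4C11-, from 16 to 18 against melan-a and from 18 to 23 against the mean of the other lines. Where melan-a was left with 1 library, it was assumed to vary like the other lines. Among 65 called differences of single genes, 970 alternative values were computed, 65 of them under the quantile normalization. Of the 970, 0 changed direction and 35 were no longer called, in 7 of the differences (those of Hist1h2ad, Hist1h2bc, Hist1h4m, Hist2h2be and Hist3h2bb-ps). The 2 of these lost with the replicate block were Hist1h2bc against melan-a (adjusted p = 0.0717) and Hist1h4m against the mean of the other lines (adjusted p = 0.054). Without the mean-variance trend Hist1h2ad against 4C11- (adjusted p = 0.0587) and Hist1h2bc against melan-a (adjusted p = 0.0787) were lost, and without genes of a mean log2 value under 1 Hist1h2ad against 4C11- (adjusted p = 0.0509). Values of a few reads set only a lower bound on a fold, and melan-a rests on 2 libraries that differ in histone level.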
